A study of Mus musculus with 20 samples.

Results

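The comparison set out here is that of a high fat (HF) diet with a control diet in mouse visceral fat, taken over pregnant and non pregnant mice together. All 20 arrays of the study entered it, 10 from HF-fed and 10 from control-fed females, and each diet held 5 pregnant and 5 non pregnant mice. The 4 groups are HF pregnant, HF non pregnant, control pregnant and control non pregnant, with 1 array for each mouse. All mice were C57BL/6J females, and the pregnant ones were taken at E18.5, which is late gestation; the labels give E18.5 for the non pregnant mice too. The HF diet supplied 58% fat and the control diet 10%, and feeding began weeks before mating. By the study's methods the diets also differed in carbohydrate, since the HF diet carried sucrose and the control diet corn starch, so that fat and carbohydrate cannot be told apart as the source of any difference. The tissue is labelled as visceral fat, the study names the mesenteric depot, and whole tissue was used, so fewer cells of a type and less RNA in each cell cannot be told apart.

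White fat cells take up glucose and can build fatty acids from it. Pyruvate enters the mitochondrion, leaves it as citrate, and citrate is split into the acetyl groups from which fatty acid synthase and the elongases make long chains; these are then joined to glycerol and kept as triglyceride in the lipid droplet. Transcription factors of the sterol element binding (SREBP) family and ChREBP, a factor that responds to carbohydrate, are known to drive the enzymes of this route, and the first of these families also drives cholesterol synthesis.

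Each array measured 45101 probe sets, which are groups of short probes for a transcript, and the values are intensities on an array that the study's authors normalized together. Of these, 19802 probe sets passed 100 units on at least 5 arrays and were tested, and 10603 genes had at least 1 of them. Array medians lay between 60.69 and 64.73 units. The excess of 3′ over 5′ signal, a sign of RNA wear, was read from 2 control transcripts. For Gapdh it was 0.19 to 0.40 log2 units in HF pregnant and 0.15 to 0.28 in HF non pregnant mice, against 0.06 to 0.25 in control mice that were pregnant and 0.06 to 0.52 in those that were not. For Actb it was 0.83 to 1.14 in HF pregnant and 0.75 to 0.95 in HF non pregnant mice, against 0.82 to 1.76 and 0.93 to 1.20 in the control groups of the same states. The part of RNA wear in the diet changes was not tested. The fat cell genes Adipoq and Fabp4 were bright on every array, with Adipoq between 14335.9 and 24629.8 units and Fabp4 between 20802.8 and 29936.9 units. Lep and Lipe, also fat cell genes, varied more, between 162.8 and 3877.3 units and between 846.9 and 3879.8 units. The pair of arrays within a group with the fewest probe sets more than 2-fold apart, HF pregnant mice 3 and 4, still had 89, so no array was counted as a repeat of another. Pancreatic genes stood apart in control pregnant mouse 2 and control non pregnant mouse 4, and B and T cell genes varied widely within 3 of the 4 groups and in 1 mouse of the fourth, as described with the cell markers below.

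A gene is called when the change in log2 intensity between HF and control mice, averaged over the pregnant and the non pregnant mice, had a Benjamini-Hochberg adjusted p under 0.05 in limma's moderated test over all tested probe sets. By that rule 126 genes were lower and 16 were higher in HF mice, which is 1.19% and 0.151% of the genes tested. At an unadjusted p under 0.05, 1536 genes (14.5%) were lower and 1558 (14.7%) higher, together 29.2% of all genes. The balance of calls depended on the fit. By probe sets, 219 were lower and 27 higher with all mice, but 1938 were lower and 2383 higher without control pregnant mouse 2, 3329 and 5807 with array weights, and 1078 and 933 without both mice high in pancreatic genes. Of the 126 lower genes 69 changed more than 2-fold and 5 more than 4-fold, and of the 16 higher genes 5 changed more than 2-fold. The median change of the lower genes was -1.04 on the log2 scale, and that of the higher genes was 0.40, beside 0.03 for all genes. Called genes had 84 further tested probe sets, of which 83 changed in the same direction and 49 were called. In 28 of the lower and 2 of the higher genes the dimmest group averaged under 100 units. With the SD pooled over the 2 states of each diet, the spread between mice was larger in control than in HF mice for 96 of the 126 lower genes. The pooled HF value joins unlike groups. In Elovl6 the SD was 0.47 in HF pregnant and 1.42 in HF non pregnant mice, against 0.56 and 1.32 in the controls of the same states. The count thus does not show that HF mice of each state varied less, and the same count over all genes is not given.

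**Figure D1:**
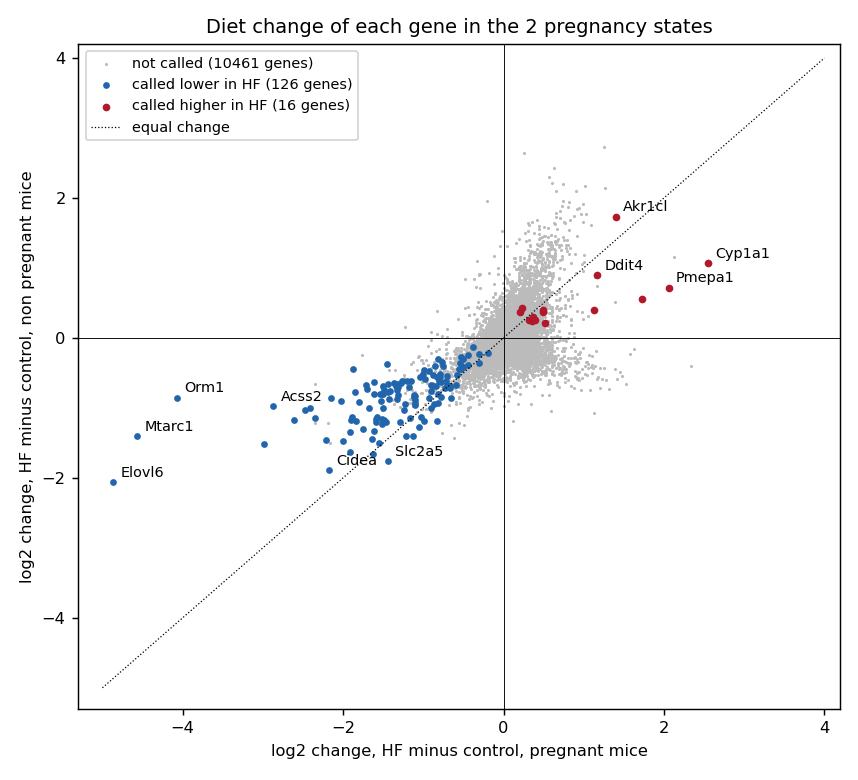
Each point is a gene, placed by its log2 change between HF and control mice in pregnant mice (horizontal axis) and in non pregnant mice (vertical axis); blue points are the 126 genes called lower, red points the 16 called higher, grey points the rest, and the dotted line marks equal change. All called genes lie below 0 or above 0 on both axes. Most lie on the side of the dotted line where the change in pregnant mice was the larger. They were called on the average of both changes.

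The genes that build fatty acids made up the clearest group. All 26 measured genes of fatty acid synthesis had a negative change, beside 44.1% of all genes. Of these 26, 12 were called lower and none higher, beside 1.19% and 0.151% of all genes. At an unadjusted p under 0.05, 24 were lower, beside 14.5% of all genes. The median change of the 26 was -0.94, beside 0.03 for all genes. The called members follow the route from citrate to the finished chain: Slc25a1, the mitochondrial citrate carrier (-1.74), Acly, which splits citrate (-1.71), Acss2, which makes acetyl-CoA from acetate (-1.92), Acaca, which makes malonyl-CoA (-1.54), Fasn, the synthase itself (-1.31), and Elovl6, which lengthens its product (-3.46). Me1 and Pgd, which supply NADPH for this work, were lower too, at -1.89 and -1.01. Tkt and Taldo1 of the non-oxidative pentose phosphate pathway (-1.15 and -0.70), Pdha1 of the pyruvate dehydrogenase complex and Thrsp, which promotes lipid synthesis, complete the 12 called genes (-0.78 and -0.99). Of the transcription factors of the route neither was called: Srebf1 changed by -0.46 (adjusted p = 0.158) and Mlxipl, which encodes ChREBP, by -0.89 (adjusted p = 0.112).

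Elovl6 had the largest change of all called genes. Its log2 intensity was 8.86, 8.40, 7.89, 9.04 and 8.19 in HF pregnant mice and 10.34, 10.87, 10.20, 12.99 and 9.17 in HF non pregnant mice. It was 13.96, 12.91, 13.93, 12.82 and 13.08 in control pregnant mice and 11.86, 10.89, 13.87, 13.60 and 13.65 in control non pregnant mice. Every HF pregnant mouse was far below every control pregnant mouse, whereas in non pregnant mice HF mouse 4 reached the range of the controls and control mouse 2 lay close to HF mouse 2. The averaged change was -3.46 ± 0.44 (SE, adjusted p = 0.00158 by limma), with -4.87 in pregnant and -2.06 in non pregnant mice.

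Fasn showed a like arrangement of the mice. Its log2 intensity was 12.08, 12.42, 11.84, 11.92 and 12.14 in HF pregnant mice and 12.92, 13.52, 13.16, 14.03 and 12.24 in HF non pregnant mice. It was 14.32, 13.85, 14.15, 13.54 and 13.81 in control pregnant mice and 13.63, 13.49, 14.12, 14.30 and 14.17 in control non pregnant mice. The pregnant groups did not overlap, and in the non pregnant groups HF mice 2 and 4 reached the controls. The averaged change of Fasn was -1.31 ± 0.18 (SE, adjusted p = 0.00242 by limma). Scd1, the desaturase, was close to the brightest values of the array in every mouse, between 14.56 and 14.87 on the log2 scale, and its change of -0.11 was not called (adjusted p = 0.108).

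**Figure D2:**
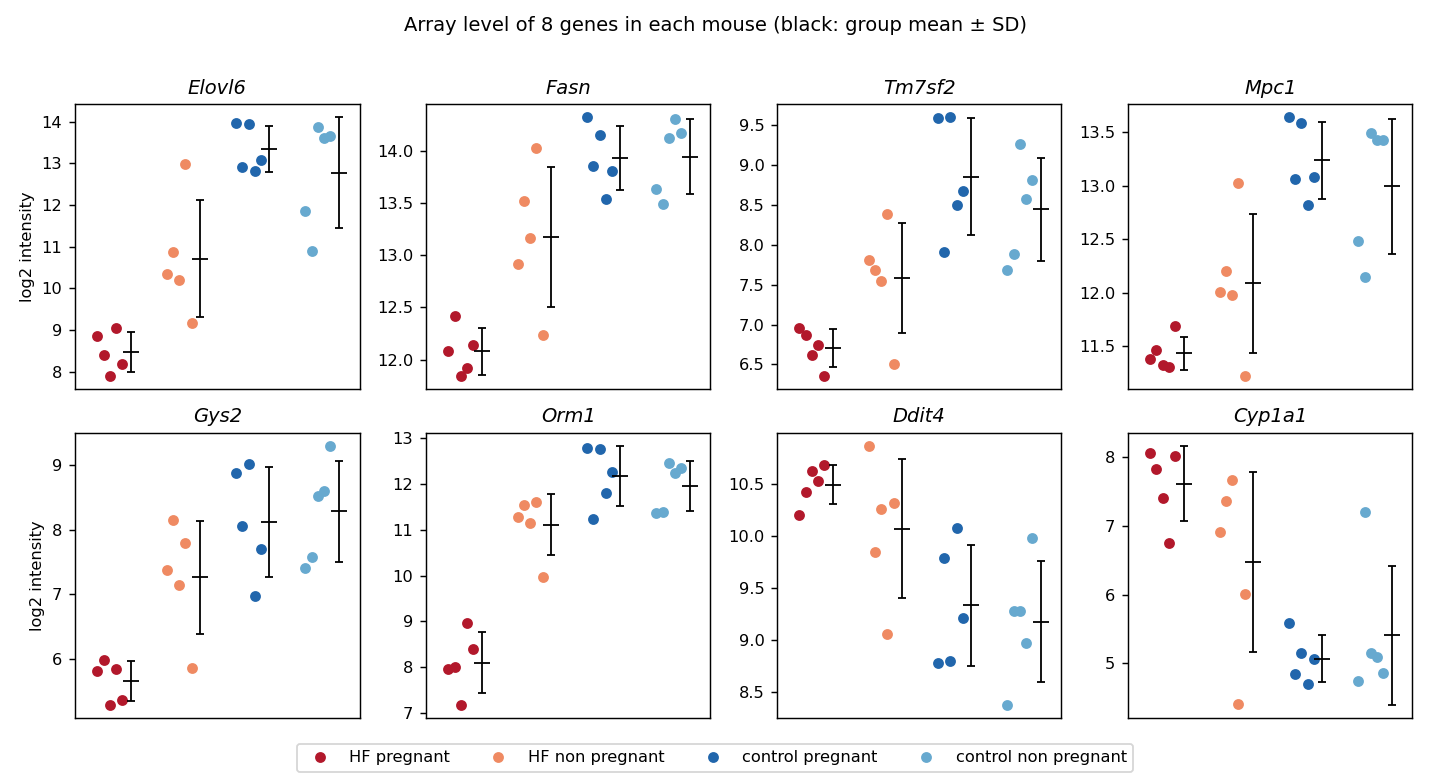
Log2 array intensity of 8 genes in each mouse, in HF pregnant, HF non pregnant, control pregnant and control non pregnant mice (left to right in each panel); points are mice and the black mark and bar are the mean ± SD of 5 mice. In Elovl6, Fasn, Tm7sf2, Mpc1, Gys2 and Orm1 the 5 HF pregnant mice lie below all control pregnant mice, and in Ddit4 and Cyp1a1 above them, while the non pregnant groups overlap in all 8 genes.

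Cholesterol synthesis followed. Of its 20 measured genes 9 were called lower and none higher, beside 1.19% and 0.151% of all genes. A negative change was seen in 17, beside 44.1% of all genes, and the median was -0.79. The called genes were Tm7sf2 and Nsdhl, which act late in the route on the sterol ring (-1.50 and -1.22), Lss, which closes that ring (-1.25), Pmvk and Fdps of the early isoprenoid steps (-1.15 and -1.11), Cyp51 (-1.12), Sc5d (-1.01), Dhcr7 (-0.95) and Insig1, which holds SREBP proteins in the endoplasmic reticulum (-1.0). The gene of the sterol-regulated factor itself, Srebf2, changed by 0.06, and Hmgcs1, at the entry to the route, by 0.30; neither was called. In Tm7sf2 the log2 intensity was 6.96, 6.87, 6.62, 6.74 and 6.35 in HF pregnant mice and 7.81, 7.69, 7.54, 8.39 and 6.50 in HF non pregnant mice. It was 9.59, 7.91, 9.60, 8.50 and 8.67 in control pregnant mice and 7.69, 7.89, 9.26, 8.57 and 8.81 in control non pregnant mice. The HF pregnant mice were again the lowest set, apart from HF non pregnant mouse 5, which lay among them. The averaged change of Tm7sf2 was -1.50 ± 0.26 (SE, adjusted p = 0.0153 by limma).

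Since these 2 groups of enzymes were lower together, the stretch upstream of their start sites was read for letters bound by SREBP, by factors of the E-box and by nuclear factor Y, which is known to act beside SREBP. RefSeq promoters of build GRCm38.p6 were at hand for 8565 of the tested genes, and the 250 bases before each start were searched on both strands for CCAAT, the box bound by nuclear factor Y, for TCACNCCA, a core of the sterol element, and for CACGTG, the E-box. The first was present in 16 of 16 genes of cholesterol synthesis with a promoter, in 13 of 23 genes of fatty acid synthesis, in 52 of 97 genes called lower, in 7 of 15 called higher and in 3406 (39.8%) of the tested genes. The sterol core was present in 3 of 16, 3 of 23, 12 of 97 and 1 of 15 genes of the same sets, against 340 (3.97%) of the tested genes. The E-box was present in 4 of 16, 3 of 23, 15 of 97 and 4 of 15 genes, against 869 (10.1%) of the tested genes. Over all 32851 promoters of the table the shares were 33.8%, 3.67% and 6.02% in the same order of motifs, and the first 2 motifs shared letters in 41 promoters. A match of letters is a description of the sequence and shows no binding.

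To show how such letters sit, the 150 bases before the start are given for 2 called genes of each group, those of smallest p that hold a motif there, written 5′ to 3′ on the strand of the gene with motif letters in capitals. Tkt lies at chr14:30548981-30549130 on the plus strand, Fasn at chr11:120824548-120824697 on the minus strand, Tm7sf2 at chr19:6067851-6068000 on the minus strand and Nsdhl at chrX:72918371-72918520 on the plus strand. The capitals mark the sterol core in Tkt, which begins 42 bases before the start and is read on the opposite strand. In the other genes they mark CCAAT or its reverse complement, which begins 90, 62 and 59 bases before the start in Fasn, 47 bases before it in Tm7sf2, and 109 and 20 bases before it in Nsdhl.
Tkt: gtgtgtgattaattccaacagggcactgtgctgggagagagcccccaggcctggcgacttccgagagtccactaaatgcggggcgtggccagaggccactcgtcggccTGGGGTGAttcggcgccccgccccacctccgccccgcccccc
Fasn: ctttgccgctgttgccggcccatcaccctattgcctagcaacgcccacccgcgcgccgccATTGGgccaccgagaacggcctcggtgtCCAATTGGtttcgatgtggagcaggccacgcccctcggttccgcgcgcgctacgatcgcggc
Tm7sf2: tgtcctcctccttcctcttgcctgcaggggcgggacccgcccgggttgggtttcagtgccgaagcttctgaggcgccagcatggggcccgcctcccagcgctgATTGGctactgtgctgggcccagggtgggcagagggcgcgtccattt
Nsdhl: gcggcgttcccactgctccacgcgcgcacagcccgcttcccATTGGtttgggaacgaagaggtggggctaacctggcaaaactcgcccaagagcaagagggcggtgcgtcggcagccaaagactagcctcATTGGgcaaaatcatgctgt

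Genes that store fatty acids as triglyceride changed in part. Of 26 measured genes of triglyceride synthesis and the lipid droplet 4 were called lower and none higher, beside 1.19% and 0.151% of all genes. The median of the 26 was -0.43. The called ones were Agpat2, which adds the second acyl chain (-1.35), Mogat2 and Dgat2, which acylate monoacylglycerol and diacylglycerol (-1.51 and -0.94), and Cidea, a droplet protein (-2.03). The droplet coats Plin4 (0.28) and Plin5 (-0.10), the droplet protein Cidec (-0.05) and the lipases Pnpla2 and Lipe (-0.43 and -0.42) were not called. The log2 intensity of Dgat2 was 10.86, 11.20, 10.65, 11.12 and 12.0 in HF pregnant mice and 11.89, 12.86, 12.38, 12.59 and 11.59 in HF non pregnant mice. It was 13.02, 12.15, 12.98, 11.94 and 12.05 in control pregnant mice and 12.35, 12.78, 12.93, 13.05 and 13.26 in control non pregnant mice. HF pregnant mouse 5 reached the lowest control pregnant mouse, and the non pregnant diets overlapped as well. Dgat2 had an averaged change of -0.94 ± 0.20 (SE, adjusted p = 0.0340 by limma).

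Some genes of pyruvate use were lower, and those of the respiratory chain had small negative changes of which 1 was called. Of 24 genes of pyruvate use and the citric acid cycle 5 were called lower, beside 1.19% of all genes. The called ones were Mpc1, part of the pyruvate carrier (-1.36), Pdhb of the pyruvate dehydrogenase complex (-0.96) and its kinase Pdk1 (-1.09). Pyruvate carboxylase, Pcx (-0.97), and the dicarboxylate carrier Slc25a10 (-1.17) complete the 5. In Mpc1 the log2 intensity was 11.38, 11.47, 11.33, 11.31 and 11.69 in HF pregnant mice and 12.01, 12.20, 11.98, 13.03 and 11.22 in HF non pregnant mice. It was 13.64, 13.06, 13.59, 12.82 and 13.08 in control pregnant mice and 12.48, 12.15, 13.49, 13.43 and 13.43 in control non pregnant mice. The diets were apart in pregnant mice by more than the spread within either, and overlapped in non pregnant mice through HF mice 2 and 4 and control mice 1 and 2. The change of Mpc1 was -1.36 ± 0.21 (SE, adjusted p = 0.00554 by limma). All 42 measured genes of the respiratory chain and ATP synthase had a negative change with a median of -0.29 and a range of -0.86 to -0.12. Among all genes 44.1% had a negative change. Of the 42 genes 41 had an unadjusted p under 0.05, beside 14.5% of all genes that were lower at that value. Only Ndufa10, a subunit of complex I, was called among the 42 (-0.49). Fatty acid oxidation and the breakdown of branched-chain amino acids had medians of -0.30 and -0.31, with no gene called among 24 and 19. When single mice were left out 0 to 7 and 0 to 6 of them were called lower, beside 25 to 1109 of all genes.

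Glucose entry, glycolysis and glycogen had a median of -0.47 over 26 genes, of which none was called higher. Beside 1.19% of all genes, 8 of the 26 were called lower. These were the insulin-responsive carrier Slc2a4 (-1.08), the fructose carrier Slc2a5 (-1.60), the glycolytic enzymes Aldoa, Pkm and Ldha (-0.65, -0.90 and -0.58), Gpd1, which makes glycerol phosphate (-1.40), and the enzymes of glycogen, Gys2 and Pygl (-1.75 and -1.52). The carrier Slc2a1, which does not need insulin, changed by 0.21 and was not called. The log2 intensity of Gys2, a glycogen synthase best known from liver, was 5.81, 5.98, 5.28, 5.84 and 5.36 in HF pregnant mice and 7.37, 8.15, 7.14, 7.80 and 5.85 in HF non pregnant mice. It was 8.88, 8.06, 9.02, 6.97 and 7.70 in control pregnant mice and 7.41, 7.58, 8.53, 8.61 and 9.30 in control non pregnant mice. The HF pregnant mice lay together in the dim range of the array, so with intensities under 100 set to 100 the change of Gys2 was -1.18 in place of -1.75. For Slc2a5, which was dim in most HF mice, it was -0.57 in place of -1.60.

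**Figure D3:**
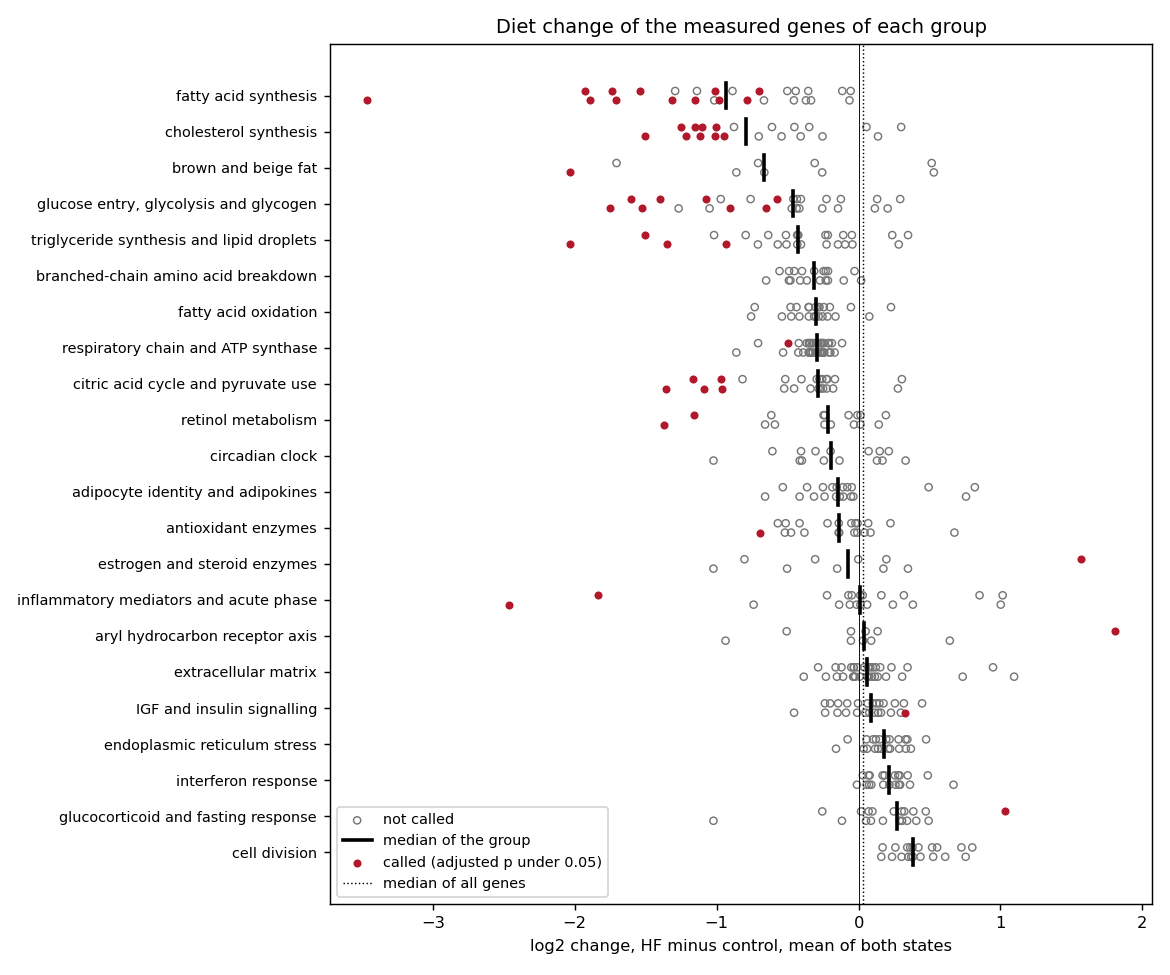
Log2 change between HF and control mice, averaged over both states, of every measured gene in 22 gene groups; red points are called genes, open points are not, the black bar is the median of the group and the dotted line the median of all genes. The groups of fatty acid and cholesterol synthesis lie furthest to the left, with medians of -0.94 and -0.79. Cell division lies furthest to the right at 0.38 with no gene called. For cell division, pregnant mice alone gave a median of 0.01 and non pregnant mice alone 0.87, so 0.38 describes neither state.

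Outside these routes, Orm1 had the smallest adjusted p of all genes. It encodes an acute phase protein of plasma, alpha-1-acid glycoprotein. Its log2 intensity was 7.96, 8.01, 7.17, 8.96 and 8.40 in HF pregnant mice and 11.29, 11.54, 11.14, 11.61 and 9.96 in HF non pregnant mice. It was 12.78, 11.24, 12.76, 11.80 and 12.27 in control pregnant mice and 11.36, 11.39, 12.45, 12.24 and 12.36 in control non pregnant mice. The HF pregnant mice stood at least 2 units below every other mouse save HF non pregnant mouse 5, whereas HF and control non pregnant mice lay close together. The averaged change of Orm1 was -2.46 ± 0.27 (SE, adjusted p = 0.000527 by limma), with -4.07 in pregnant and -0.86 in non pregnant mice. Orm2 was called as well (-1.84), but it was dim, with -0.45 when intensities under 100 were set to 100, and probes for the near-identical Orm genes may read each other.

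Mtarc1, which encodes a reducing enzyme of the outer mitochondrial membrane, followed the same shape. Its log2 intensity was 5.29, 5.91, 4.70, 6.42 and 5.23 in HF pregnant mice and 8.82, 9.67, 8.84, 9.76 and 7.59 in HF non pregnant mice. It was 11.01, 9.45, 10.92, 9.30 and 9.74 in control pregnant mice and 9.29, 9.62, 10.57, 10.79 and 11.41 in control non pregnant mice. The HF pregnant mice were thus dim where all other groups were bright. The averaged change of Mtarc1 was -2.99 ± 0.34 (SE, adjusted p = 0.000588 by limma). Hephl1, of the copper oxidase family, changed by -2.25 and Tmem79, a membrane protein, by -1.77; both were called and dim in HF mice, with -1.31 and -0.69 when intensities under 100 were set to 100. Enpep, an aminopeptidase that cuts angiotensin, was lower by 1.75 and Fabp5, a carrier of fatty acids in fat cells and macrophages, by 1.12. In retinol metabolism 2 of 16 genes were called lower, beside 1.19% of all genes. Rdh11, a retinal reductase, changed by -1.37, with -1.59 in pregnant and -1.16 in non pregnant mice. Aldh1a7, of the aldehyde dehydrogenase family, changed by -1.16, with -1.88 in pregnant and -0.44 in non pregnant mice. The unadjusted p of Aldh1a7 in non pregnant mice was 0.20 by limma. The plasma carrier Rbp4 was not called (-0.66, adjusted p = 0.0846 by limma). Of 21 antioxidant enzymes only Gpx4, which reduces lipid peroxides, was called (-0.70).

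The 16 genes called higher formed no single route. Only 5 changed more than 2-fold: Cyp1a1, the cytochrome induced through the aryl hydrocarbon receptor (1.81), Akr1cl, of the aldo-keto reductase family (1.57), Pmepa1, a target and brake of TGF-beta signalling (1.39), Peg3, a paternally expressed zinc finger gene (1.14), and Ddit4, an inhibitor of mTOR signalling that rises in fasting and stress (1.03). With intensities under 100 set to 100, Cyp1a1 and Akr1cl changed by 0.63 and 0.90, under 2-fold. The remainder were Apoe (0.77), Papss2 (0.45), Ivns1abp (0.43), Dleu2 (0.36), the activin receptor Acvr1b (0.33), the insulin-restrained factor Foxo1 (0.33), Man2a1 (0.32), Ice2 (0.31), Zfp994 (0.30), Tut7 (0.29) and Zmiz1 (0.28). Of the 16, 5 had an unadjusted p under 0.05 by limma in pregnant mice only, and 1, Foxo1, in non pregnant mice only. In pregnant and non pregnant mice Cyp1a1 changed by 2.55 and 1.07, Pmepa1 by 2.06 and 0.72, and Peg3 by 1.72 and 0.55. Apoe changed by 1.13 and 0.40, Dleu2 by 0.52 and 0.21, and Foxo1 by 0.23 and 0.43. The averages of these genes do not by themselves show a change in both states. Around Foxo1, 1 of 26 genes of IGF and insulin signalling was called higher, and the median was 0.09. Around Cyp1a1, 1 of 10 genes of its receptor's axis was called higher. Among all genes 0.151% were called higher. In that axis Cyp1b1 changed by 0.64 (adjusted p = 0.0952 by limma) and Ahr by 0.13 (adjusted p = 0.151 by limma).

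In Ddit4 the log2 intensity was 10.21, 10.43, 10.63, 10.53 and 10.69 in HF pregnant mice and 10.87, 9.85, 10.26, 9.06 and 10.32 in HF non pregnant mice. It was 8.78, 9.79, 8.80, 10.08 and 9.21 in control pregnant mice and 8.37, 9.28, 9.28, 8.97 and 9.98 in control non pregnant mice. The pregnant diets did not overlap, although HF mouse 1 and control mouse 4 were close, and in the non pregnant mice HF mice 2 and 4 lay within the controls. The averaged change of Ddit4 was 1.03 ± 0.23 (SE, adjusted p = 0.0365 by limma), and it was of similar size in pregnant (1.17) and non pregnant mice (0.90).

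Cyp1a1 had a log2 intensity of 8.07, 7.83, 7.41, 6.76 and 8.02 in HF pregnant mice and 6.92, 7.37, 7.67, 4.41 and 6.01 in HF non pregnant mice. It was 5.59, 4.85, 5.15, 4.70 and 5.06 in control pregnant mice and 4.74, 7.20, 5.15, 5.09 and 4.86 in control non pregnant mice. All pregnant HF mice exceeded all pregnant controls, and in non pregnant mice 1 mouse of each diet, HF mouse 4 and control mouse 2, stood among the other diet. The averaged change of Cyp1a1 was 1.81 ± 0.37 (SE, adjusted p = 0.0271 by limma), and 0.63 with intensities under 100 set to 100, since most controls were dim.

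Several groups that diet could touch had no or few called genes. Inflammatory mediators and acute phase genes had a median of 0.01, and the only genes called among 20 were Orm1 and Orm2, both lower. Ccl2, the chemokine that draws monocytes, changed by 0.06 (adjusted p = 0.830 by limma). It was dim, between 64.9 and 169.3 units, and changed by -0.15 in pregnant and 0.28 in non pregnant mice. The 22 genes of endoplasmic reticulum stress had a median of 0.18. Of these 13 were higher at an unadjusted p under 0.05, beside 14.7% of all genes. None was called, with the chaperone Hspa5 at 0.33 (adjusted p = 0.0758 by limma). When single mice were left out 0 to 6 of the 22 were called higher, beside 0 to 1073 of all genes. The 33 genes of the extracellular matrix, the 21 of the interferon response and the 15 of the circadian clock had medians of 0.06, 0.22 and -0.20, with none called. Of the secreted and hormone-related genes that the study singled out, Igf1 changed by 0.16 (adjusted p = 0.598), Igfbp3 by 0.45 (adjusted p = 0.145), Esr1, the estrogen receptor alpha gene, by -0.50 (adjusted p = 0.169), and Hsd17b12, an enzyme of very long fatty acid elongation also assigned to estrogen synthesis, by -0.80 (adjusted p = 0.0591). In pregnant and non pregnant mice the changes were 0.35 and -0.03 for Igf1 and 0.88 and 0.02 for Igfbp3. They were -0.18 and -0.83 for Esr1, and -0.82 and -0.79 for Hsd17b12. Of 20 genes of fat cell identity none was called. Among these, 17 had a negative and 3 a positive change, between -0.66 and 0.82, with a median of -0.14.

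The change was compared between the 2 states, which share no mice. Of the called genes, 117 of the 126 lower and 10 of the 16 higher had an unadjusted p under 0.05 within the pregnant mice and again within the non pregnant mice, beside 3.15% and 0.962% of all genes for the same 2 directions. The call on the average used these same changes, so the counts describe the called genes and support nothing beyond the call. Within each state alone few genes passed adjustment. In pregnant mice 23 genes were lower and 3 higher, which is 0.217% and 0.0283% of genes. In non pregnant mice none was called by limma, although 1828 genes (17.2%) had an unadjusted p under 0.05, and the smallest adjusted p was 0.281. By probe sets the shared fit called 38 in pregnant mice, where a fit to the pregnant groups alone called 64. In non pregnant mice both kinds of fit called none.

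The change was larger in pregnant mice for 108 of the 126 lower and 13 of the 16 higher genes. The median of the lower genes was -1.24 within pregnant mice, against -0.80 within non pregnant ones. These genes were called on the average of the same changes, and the count over all genes is not given. The counts and medians thus describe the called genes and do not by themselves show a larger diet response in pregnancy. Tested directly, the difference of the diet change between the states reached the adjusted threshold for no gene by limma, with 332 genes (3.13%) at an unadjusted p under 0.05. Among the called genes 18 lower and 4 higher ones were below that unadjusted value. Orm1 had the largest such difference (-3.21, adjusted p = 0.201), followed by Mtarc1 (-3.17) and Elovl6 (-2.81). The 5 smallest differences were those of Atp5pb, a subunit of ATP synthase (-0.20 in pregnant and -0.21 in non pregnant mice), Ank, a pyrophosphate transporter (-0.82 and -0.81), Tlcd3b (-1.17 and -1.15), Ergic1 (-0.73 and -0.71) and Stom, a membrane protein (-0.66 and -0.69), all called lower. The p-values that miss the threshold do not show that the states respond alike.

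No gene separated all 10 HF from all 10 control mice. Within pregnant mice the diets did not overlap for 98 of the 126 lower genes, beside 2.03% of all genes that lay lower in that way, and within non pregnant mice for 4 of them, beside 0.858% of all genes. A single called gene, Wbp2, a coactivator that binds WW domains, was separate in each state. Its mean log2 intensity was 8.32 ± 0.11 in HF pregnant and 8.49 ± 0.18 in HF non pregnant mice, and 8.82 ± 0.32 among control pregnant mice and 8.91 ± 0.17 among control non pregnant ones (SD, n = 5 each). Overlap was also counted for each mouse against all 10 mice of the other diet, of both states. For the 98 genes without overlap within pregnant mice, control pregnant mice could reach only HF non pregnant ones. The overlap over both states differed between mice. The 126 lower genes were chosen on these same mice, and the same counts over all genes are not given. HF non pregnant mouse 4 reached the lowest control mouse in 124 of the 126 lower genes and HF non pregnant mouse 2 in 98. HF non pregnant mice 1 and 3 did so in 40 and 47, and HF pregnant mouse 5 in 27. On the other side, control non pregnant mice 1 and 2 and control pregnant mice 2, 4 and 5 reached the highest HF mouse in 112, 115, 99, 116 and 97 of these genes. Every remaining mouse overlapped the other diet in 1 to 11 of them.

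The mice also differed in the genes of other cell types. Relative to the mean of all arrays, the genes of fatty acid synthesis stood at -0.79, -0.67, -0.97, -0.91 and -0.37 in HF pregnant mice and at -0.35, -0.01, -0.31, 0.42 and -1.02 in HF non pregnant mice, in log2 units. They stood at 1.0, 0.20, 0.92, 0.07 and 0.24 in control pregnant mice and at 0.01, 0.01, 0.87, 0.76 and 0.90 in control non pregnant mice. Both control groups thus held a high and a low set of mice, and the HF non pregnant mice were the most scattered group.

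B cell genes stood at 0.84, 0.64, 1.07, 1.06 and -1.83 in HF pregnant mice and at 1.53, -0.60, 0.47, 0.12 and 2.25 in HF non pregnant mice. They stood at -2.69, 1.53, -1.29, 1.10 and -0.33 in control pregnant mice and at -2.08, -1.87, 0.01, -0.58 and 0.66 in control non pregnant mice. All 14 measured B cell genes had a positive change, with a median of 1.18, as did 14 of 15 T cell genes, with a median of 0.85. None of either had an unadjusted p under 0.05 by limma, none was called, and the ranges of the diets overlapped. The 7 measured genes of lymph node stroma had a median of 0.66, and none was called. Their level lay between -1.16 and 1.14 in HF mice and between -2.19 and 1.06 in control mice. By the study's methods visible lymph nodes were removed from the fat. HF non pregnant mouse 5 was the highest of all mice in B cell genes and the lowest in fatty acid synthesis. Control pregnant mouse 1 was the lowest of all mice in B cell genes and the highest in fatty acid synthesis, while control non pregnant mice 1 and 2 were low in B cell genes and the lowest of their group in fatty acid synthesis. Control pregnant mice 2 and 4 were the highest of their group in B cell genes and the lowest in fatty acid synthesis. Control non pregnant mouse 5 was the highest of its group in both. HF pregnant mouse 5, low in B cell genes, was the highest of its group in fatty acid synthesis. Every HF pregnant mouse was below every control mouse in fatty acid synthesis. The part of these cells in the diet changes was not tested.

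Macrophage genes had a median change of 0.32. Of 26, 8 were higher at an unadjusted p under 0.05, beside 14.7% of all genes, and none was called higher. The 2 called members, Fabp5 and Ctsd, were lower. The mean level of the macrophage genes was -0.09 to 0.33 in HF pregnant and -0.19 to 0.31 in HF non pregnant mice. It was -0.59 to 0.27 in control pregnant and -0.44 to 0.01 in control non pregnant mice. Endothelial, mesothelial and smooth muscle genes had medians of 0.13, -0.07 and 0.28, and none was called. In the same order the medians were 0.27, 0.30 and 0.84 in pregnant mice. In non pregnant mice they were -0.002, -0.33 and -0.38, so these averages do not stand for a shared change. Pancreatic acinar genes stood at 5.65 in control pregnant mouse 2 and 5.36 in control non pregnant mouse 4, and at 2.02 in control pregnant mouse 5, where no HF mouse exceeded 0.71; only 4 of these genes passed the filter on intensity, and none was called. Without control pregnant mouse 2 and control non pregnant mouse 4, 615 of all genes were called lower. Among them were 16 of the 26 fatty acid genes and 14 of the 20 cholesterol genes. The medians of these 2 groups were then -0.96 and -0.81.

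**Figure D4:**
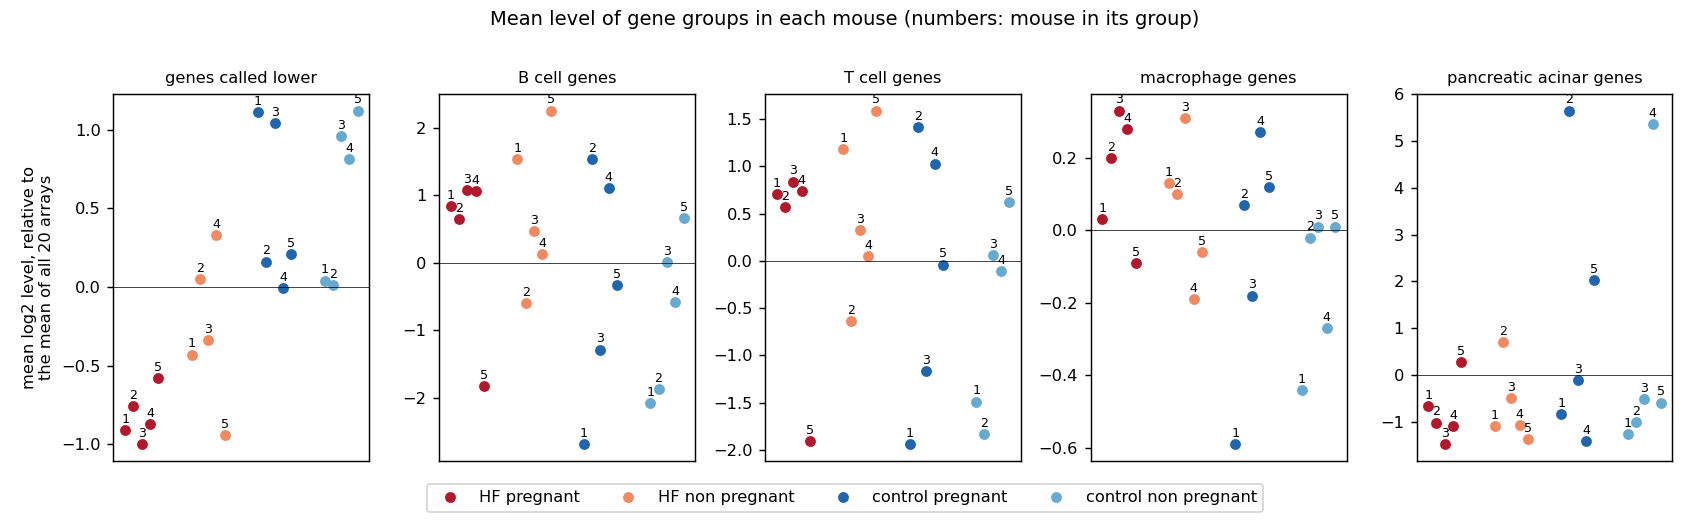
Mean log2 level of 5 sets of genes in each mouse, relative to the mean of all 20 arrays, in HF pregnant, HF non pregnant, control pregnant and control non pregnant mice (left to right in each panel); the number at each point is the mouse within its group. The first panel shows the 126 genes called lower, which were chosen on these mice; the lymphoid panels show 1 low HF pregnant mouse, and the pancreatic panel shows control pregnant mouse 2 and control non pregnant mouse 4 far above the rest.

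The number of calls depended on single mice. Leaving out 1 mouse at a time gave between 40 and 1938 lower and between 1 and 2383 higher probe sets, beside 219 and 27 with all mice. Both highest counts came without control pregnant mouse 2. Without HF non pregnant mouse 4 there were 831 lower and 323 higher ones. All 142 called genes kept their direction in each of the 20 fits. They were chosen on these same mice and each fit left out only 1, so this supports nothing beyond the call. In these fits 25 genes, all lower, remained called every time, and 13 of them did so in all 30 alternatives: Orm1, Mtarc1, Elovl6, Enpep, Tkt, Fasn, Me1, Acss2, Mpc1, Fabp5, Acly, Tm7sf2 and 3000002C10Rik, a transcript known by its clone name. The counts of called genes in fatty acid synthesis lay between 8 and 20, in cholesterol synthesis between 2 and 16, in pyruvate use and the citric acid cycle between 1 and 20, in glucose use between 2 and 17 and in triglyceride synthesis between 0 and 11. Those of the respiratory chain lay between 0 and 37 of 42. In the same fits 25 to 1109 of all genes were called lower, so the ranges are not particular to these groups. None of the genes called higher was called in every fit, and Ivns1abp, called in 19 of 20, came nearest.

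**Figure D5:**
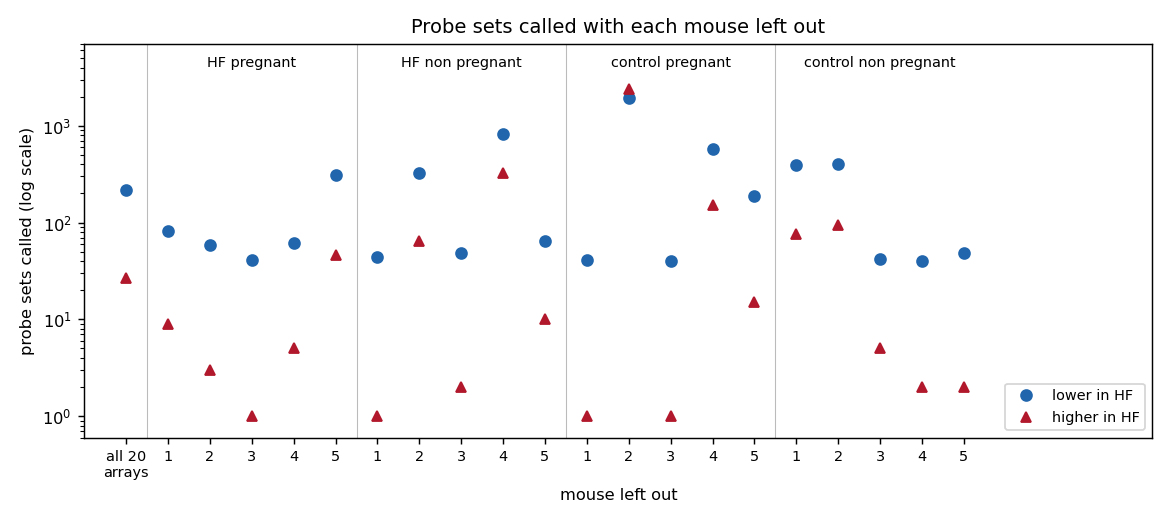
Number of probe sets called lower (circles) and higher (triangles) in HF mice, on a log scale, with all 20 arrays and with each mouse left out in turn, the mice ordered as HF pregnant, HF non pregnant, control pregnant and control non pregnant. The counts are highest without control pregnant mouse 2, at 1938 lower and 2383 higher.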

How the data were processed

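Visceral fat RNA of each of the 20 mice was read on an Affymetrix 430 2.0 array. Per the submitters' processing notes, the authors normalized all arrays together by RMA with the affy package in R 2.8.0, and the deposited value is 1 intensity for each of 45101 probe sets on a linear scale. The extraction is given as Trizol in the labels and as a column kit in the methods, and no scan dates were given, so batches could not be checked. The log2 was taken with no further scaling. The 64 control probe sets were left out, and probe sets over 100 on at least 5 of 20 arrays (19802, 43.91%) were fitted as 4 group means with limma 3.58.1 in R 4.3.3. The diet contrast is the mean of HF minus control over both states, with p-values adjusted by Benjamini-Hochberg over all fitted probe sets at 0.05. The procedure was tested on simulated data. Of the fitted probe sets 17322 carry 1 symbol in the platform annotation, 531 several and 1949 none; each of the 10603 genes is represented by the brightest of its fitted probe sets, by mean over all arrays, among those of 1 symbol. The spread is that between mice, and the 5 arrays of a group limit the precision.

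Genes to be named were drawn from the 10 highest and 10 lowest changes among called genes, up to 4 called members of each of 34 gene lists (2 of smallest p where none was called), the genes the study names, and the called genes with the 5 smallest and 5 largest differences between states. Most uncalled genes that the rule yields are given only within the counts of their lists. Named outside that rule, after their values were seen, were Acly, Acaca, Slc25a1, Pgd and Thrsp, the other called members of lists, all genes called higher, Wbp2, 3000002C10Rik, and the uncalled Srebf1, Mlxipl, Srebf2, Hmgcs1, Plin4, Plin5, Cidec, Pnpla2, Lipe, Slc2a1, Cyp1b1, Ahr and Hspa5. The members and lists were chosen with earlier results of these data known. Tnf was not among the probe sets tested. A list's level in a mouse is the mean log2 deviation of its measured genes from their means over all arrays. Promoter sequences are from RefSeq, build GRCm38.p6. As alternatives, the filter was dropped or set on the mean, and the fit was repeated with trended and robust moderation, array weights, median centring, repeated quantile normalization, a floor at 100, an additive model, fits to 1 state alone, a replicate block, a 1.5-fold threshold with an unadjusted p, each mouse left out, and, added after seeing the data, both mice high in pancreatic genes left out.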

Additional observations from a re-analysis of the deposited data

Results flagged for a closer look

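In 24 of 368 sets of 5 mice, 1 for each named gene and group, 1 mouse lay far from the other 4, by a rule that chance meets in about 1 in 20 sets; values are log2 intensities. HF pregnant mouse 5 was low in lymphoid genes: Fcer2a stood at 6.16, Ms4a1 at 8.48, Cd2 at 6.79, Ccr7 at 5.16, Glycam1 at 8.40 and Tnfsf11 at 4.52. It was high in the clock-linked repressor Bhlhe40 (9.87) and in Stom (9.38). HF non pregnant mouse 5, the mouse highest in B cell genes, was low in Mccc1 (9.79), Orm1 (9.96), Igf1 (10.48) and Scd1 (14.56). HF non pregnant mouse 4, whose lipid synthesis genes lay among the controls, was high in Bhlhe40 (9.91) and low in Acvr1b (9.09).

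Among control mice, control pregnant mouse 2, high in pancreatic genes, was high in Krt8 (10.01) and Papss2 (9.28) and low in Cldn15 (7.42). Control pregnant mouse 3 was low in Akr1cl (5.18) and control pregnant mouse 5 high in Thbs1 (9.93). Control non pregnant mouse 1 was low in Aldh1a7 (11.06). Control non pregnant mouse 2 was high in Cyp1a1 (7.20), Pdia6 (10.66) and Acvr1b (9.29), and control non pregnant mouse 4 was high in Zg16, a pancreatic gene, at 11.73, where the other 4 mice lay between 5.48 and 6.56.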

How the results depend on the processing

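With all 20 arrays 219 probe sets were lower and 27 higher over both states, 38 were called in pregnant mice, and none in non pregnant mice or for the difference between states. Calling by a 1.5-fold change and an unadjusted p of at most 0.05 gave 439 lower, 189 higher, 561, 774 and 177. Array weights, which weighted HF non pregnant mouse 3 at 11.3 and control pregnant mouse 1 at 0.23, gave 3329 lower, 5807 higher, 1365, 7489 and 2. No filter gave 100 lower, 12 higher, 25 in pregnant and 1 in non pregnant mice. The floor at 100 gave 144 lower and 17 higher, the additive model 342 and 57, and leaving out both mice high in pancreatic genes 1078 and 933. A fit to the pregnant groups alone called 64. With a replicate block 19 were lower, 0 higher and 17 called in pregnant mice; the replicate numbers do not pair the mice, since the deviations of the 30 same-numbered pairs had a median correlation of -0.16 (-0.75 to 0.67). Leaving out 1 mouse gave 40 to 1938 lower, 1 to 2383 higher, 15 to 62 in pregnant mice, 0 in non pregnant mice and 0 to 1 for the difference. The lower count moved more than 1.5 times without every mouse save HF pregnant mouse 5 (309), HF non pregnant mouse 2 (325) and control pregnant mouse 5 (186). The cause of these shifts was not tested. Other settings, among them median centring, trended moderation and repeated quantile normalization, left each count within 1.5 times. The median of all probe sets was 0.04, and 0.02 after centring.

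Of 2756 values for single named genes 2203 kept direction and call, 446 lost a call, 100 gained one and 7 turned round, each of a gene not called. These were Krt8 (0.0831), Cldn15 (0.0085) and Ccl2 (-0.0113) with array weights, Acta1 with the floor (-0.0087), and Ccl2 when single mice were left out, where it lay between -0.031 and 0.145.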

Other observations

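Some genes called in every leave-one-out fit belong to none of the gene groups described. They include Ptges, which makes prostaglandin E2 (-1.51), Pth1r, the receptor of parathyroid hormone (-1.64), H2-Q10, a secreted class I molecule (-1.21), Tecr, the last enzyme of the cycle that elongates very long fatty acids (-1.10), Dct, known from melanin synthesis (-1.19, dim in HF mice, and -0.63 with intensities under 100 set to 100), and Lrpap1, a chaperone of lipoprotein receptors (-1.07); all were lower in HF mice. They were chosen after their values were seen.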
